A study of Mus musculus with 4 samples.

Results

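Protein-coding genes of the transforming growth factor beta (TGF-beta) and bone morphogenetic protein (BMP) pathway were examined in a map of trimethylated lysine 4 of histone H3 (H3K4me3), a mark found at active promoters, in mouse heart. The genes were chosen by symbol alone: all those of the GENCODE annotation on chromosomes 1 to 19 and X whose names begin with Tgfb, Bmp, Gdf, Inhb, Acvr or Smad. This gave 54 of 21670 protein-coding genes, of which 27 encode ligands, 13 receptors or co-receptors and 8 Smad proteins. The remaining 6 share a prefix but encode other proteins. The tissue was whole heart of female B6CASTF1/J mice, an F1 hybrid of C57BL/6J and CAST/EiJ, of 2 months of age, and no other genotype, treatment or tissue was included. Chromatin with fragments of 200 to 600 bp came from 2 pools, labelled G and H, each of 2 heart biosamples, with 2 technical replicates per pool. The pools carry the labels of biological replicates 1 and 2 but name the same donor record, so the labels do not say that they came from separate animals, and the spread between them may be technical. Both technical replicates of a pool share an alignment, which leaves 1 value per pool. With a single condition no group comparison was made and no test was run: every value here is a description.

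Ligands of this family bind a complex of type I and type II receptor kinases at the cell surface. The type I receptor then phosphorylates receptor-regulated Smads, which join Smad4 and enter the nucleus, while Smad6 and Smad7 inhibit the signal and are themselves induced by it. In the heart the pathway is known for its parts in valve and septum formation, in endothelial cells and in the fibrosis of injured muscle.

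The data were 4 lists of peaks, which are regions of enrichment called by the authors, on the mouse build mm10. The main list was made from both pools and called replicated, 1 list each belonged to pool G and pool H, and a second list of both pools was called pseudoreplicated. A gene was counted as marked where a peak came within 1000 bp of a start of one of its coding transcripts and overlapped that window by at least 1 bp. The fold enrichment is the authors' signal value of the highest such peak, read here as a ratio to a control. The width is that of the widest promoter domain, where a domain is a run of peaks with gaps of no more than 1000 bp. Library depths are not given in the sources used here. Marker genes of heart muscle, endothelium and fibroblasts, 5 of each, were marked in every list, and 0 of 3 liver markers were. Of 5 immune markers 0 were marked in the replicated list and 1 in pool G's. Because the tissue is a mixture of cell types, fewer cells carrying a mark and less of it per cell cannot be told apart.

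The reference promoter sequences of 4 genes are given here because these genes bear some of the widest or strongest domains of the receptors and Smads. Each is the 150 bases before the start of the longest coding transcript, read 5′ to 3′ on the gene's strand from RefSeq's copy of GRCm38.p6, the assembly known as mm10, with starts from GENCODE M21. CG dinucleotides, the sites of CpG methylation, are in capitals. The reference is C57BL/6J, so CAST/EiJ alleles are not shown. The Smad6 stretch is chr9:64022060-64022209 on the minus strand, that of Bmpr2 is chr1:59763250-59763399 on the plus strand, that of Tgfbr3 is chr5:107289630-107289779 on the minus strand and that of Acvrl1 is chr15:101128372-101128521 on the plus strand.
Smad6: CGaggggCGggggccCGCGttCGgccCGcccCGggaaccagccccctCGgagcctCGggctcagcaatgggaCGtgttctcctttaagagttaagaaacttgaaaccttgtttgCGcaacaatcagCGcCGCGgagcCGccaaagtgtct
Bmpr2: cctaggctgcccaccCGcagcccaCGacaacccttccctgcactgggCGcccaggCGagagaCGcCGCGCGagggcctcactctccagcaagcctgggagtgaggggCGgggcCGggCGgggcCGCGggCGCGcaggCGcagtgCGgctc
Tgfbr3: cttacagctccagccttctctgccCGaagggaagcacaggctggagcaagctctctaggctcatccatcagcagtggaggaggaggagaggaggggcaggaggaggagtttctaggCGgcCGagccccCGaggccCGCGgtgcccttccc
Acvrl1: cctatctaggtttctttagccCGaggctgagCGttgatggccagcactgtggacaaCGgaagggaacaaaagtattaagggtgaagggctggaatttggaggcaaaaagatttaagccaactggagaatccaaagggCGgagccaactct
Bmpr2 has 17 CG dinucleotides in this window and Smad6 has 15, whereas Tgfbr3 has 6 and Acvrl1 has 4, at a GC content of 49.3% for Acvrl1 and 77.3% for Bmpr2.

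Ligand promoters ranged from wide domains to none, and 2 pairs are shown for that reason. Bmp4 had a wide domain and Bmp10 no promoter peak, and of the paralogs Bmp8a and Bmp8b the former was marked and the latter was not. The stretches are chr14:46390670-46390819 on the minus strand for Bmp4, chr6:87428844-87428993 on the plus strand for Bmp10, chr4:123343253-123343402 on the minus strand for Bmp8a and chr4:123105015-123105164 on the plus strand for Bmp8b, again with CG dinucleotides in capitals.
Bmp4: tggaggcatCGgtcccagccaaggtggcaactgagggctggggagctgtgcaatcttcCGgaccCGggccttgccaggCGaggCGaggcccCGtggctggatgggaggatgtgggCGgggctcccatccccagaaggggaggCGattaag
Bmp10: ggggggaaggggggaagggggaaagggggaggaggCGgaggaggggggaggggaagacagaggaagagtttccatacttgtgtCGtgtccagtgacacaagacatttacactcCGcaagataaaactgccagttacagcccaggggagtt
Bmp8a: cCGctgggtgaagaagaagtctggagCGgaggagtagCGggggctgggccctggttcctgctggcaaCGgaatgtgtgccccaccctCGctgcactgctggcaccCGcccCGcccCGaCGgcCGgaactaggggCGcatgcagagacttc
Bmp8b: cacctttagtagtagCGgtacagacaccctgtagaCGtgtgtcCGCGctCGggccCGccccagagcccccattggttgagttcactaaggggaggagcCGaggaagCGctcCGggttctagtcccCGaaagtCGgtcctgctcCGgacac
Bmp8a and Bmp8b have 11 and 12 CG dinucleotides in these windows, Bmp4 has 8 and Bmp10 has 3.

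A promoter peak was found at 41 of the 54 genes in the replicated list, or 75.9%, where 63.0% of all protein-coding genes had one. Pool G's list also gave 41, against 63.4% of all genes, pool H's list gave 40, against 61.3%, and the pseudoreplicated list gave 41, against 63.4%. In all 4 lists 40 of the genes were marked, against 61.1% of all genes, and 13 were marked in none. All 8 Smads and all 6 of the other prefix matches had a peak, as did 12 of 13 receptors, but only 15 of 27 ligands. Within the ligands the counts were 3 of 3 for TGF-beta, 6 of 10 for the BMPs, 4 of 10 for the growth and differentiation factors (GDFs) and 2 of 4 for the inhibin and activin beta subunits. The classes were set by known function, not by the data, but were chosen with earlier results of these data known.

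Ligand promoters were also marked more weakly. The median fold enrichment of the 15 marked ligands was 8.56 in the replicated list and 9.36 ± 3.37 over the pools' own lists (SD, n = 2 pools). Receptors had a median of 16.1 (16.6 ± 3.71) and Smads one of 16.1 (17.1 ± 2.36), while all marked genes had a median of 15.3. In the replicated list only Bmp6 among the 15 ligands lay above that all-gene median, against 8 of 12 receptors and 6 of 8 Smads. In pool G's list, with an all-gene median of 18.2, the only such ligand was Tgfb2, at 18.7. Pool H's list had lower values for nearly every gene, so the SDs are large, and the ligand median was the lowest of the 3 in each pool's list.

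**Figure D1:**
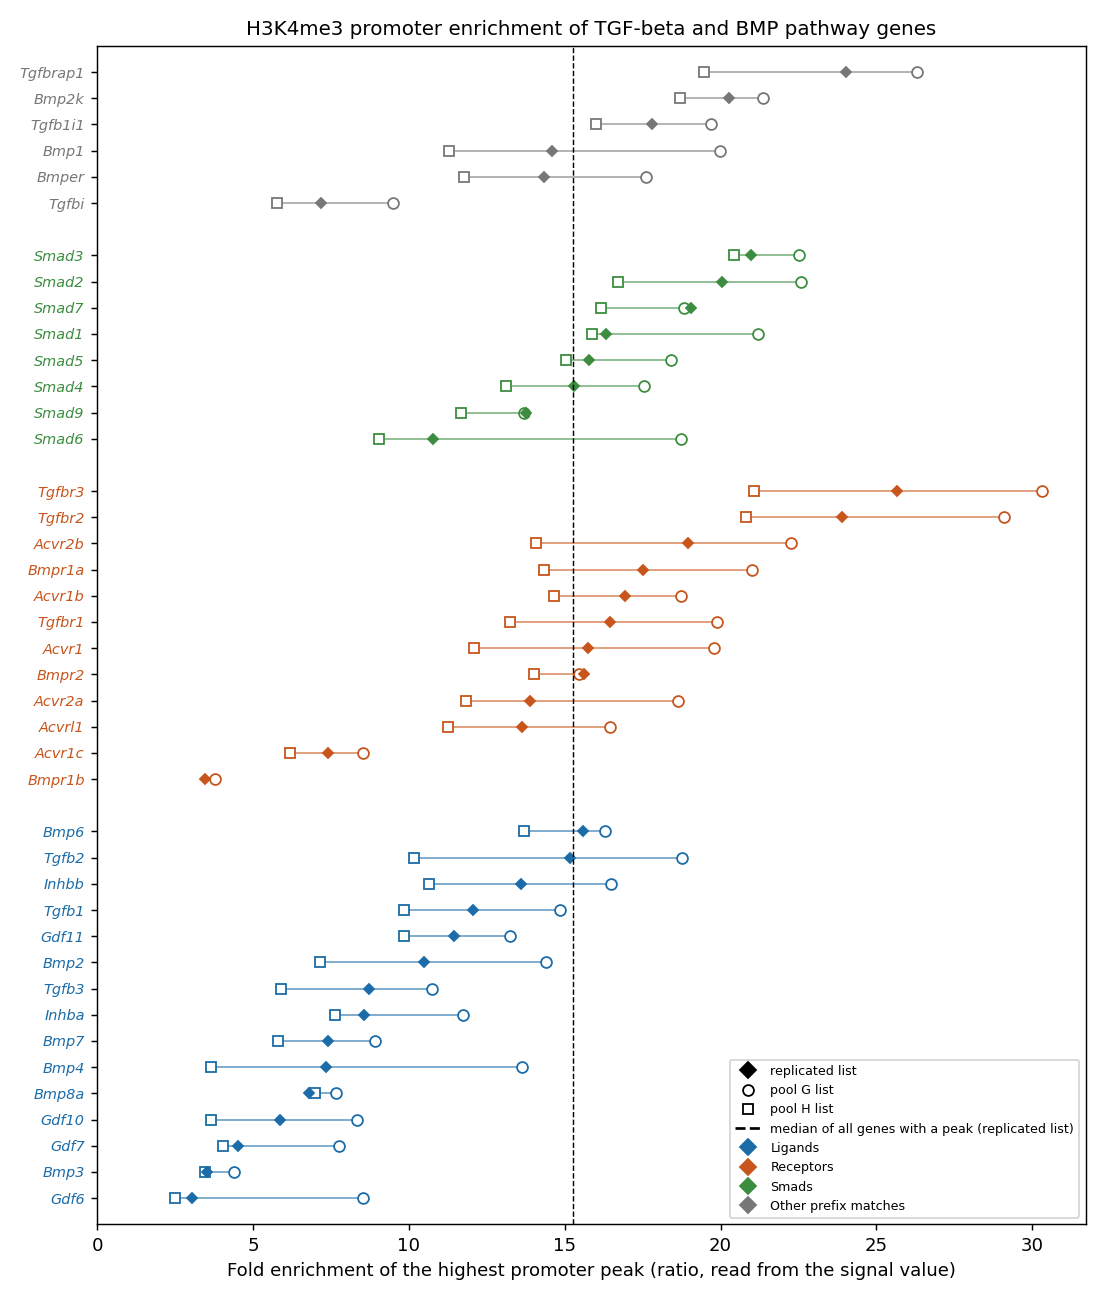
Fold enrichment of the highest promoter peak (x axis, ratio) for the 41 marked genes, grouped by class, with the replicated list as diamonds, pool G as open circles and pool H as open squares, and the all-gene median of 15.3 as a dashed line. In the replicated list only Bmp6 of the 15 ligands lies right of the line, against 8 of 12 receptors and 6 of 8 Smads.

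The ligands' median was the lowest in domain width too, but lay near that of all genes. The median width was 1857 bp for ligands (1883 ± 73.5 over the pools, n = 2), 2622 bp for receptors (2714 ± 379) and 2709 bp for Smads (2560 ± 480), where all marked genes had 1799 bp. Receptors and Smads differed by less than the SD between pools. Above the all-gene median lay 8 of 15 ligands, 10 of 12 receptors and 7 of 8 Smads. In the widest 5.0% of marked genes, those of at least 4482 bp, lay 5 of the 41: the inhibitors Smad7 and Smad6, the ligand Bmp4, and the receptors Bmpr2 and Acvrl1. Both pools' own lists, each with its own limit for the widest 5.0%, gave 5 in pool G and 4 in pool H.

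**Figure D2:**
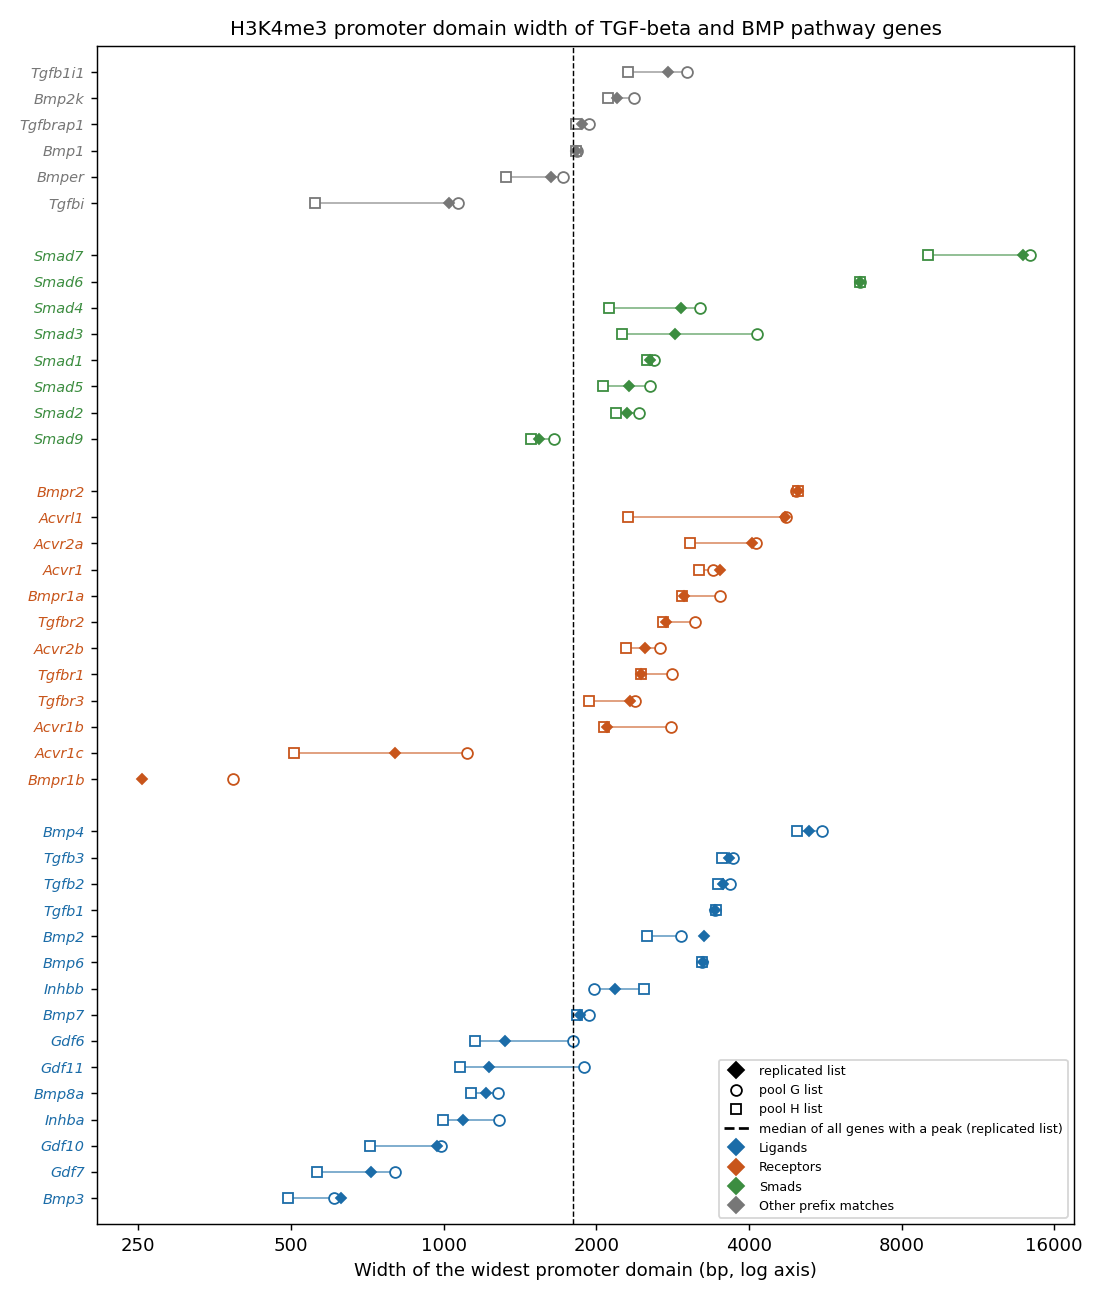
Width of the widest promoter domain (x axis, bp, log scale) for the 41 marked genes, with symbols as in the plot of fold enrichment and the all-gene median of 1799 bp as a dashed line. Ligands span 627 to 5266 bp, and Smad7 and Smad6 are the widest of all at 13872 and 6631 bp.

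All 3 TGF-beta ligands, the cytokines that give the family its name, had domains near the 90th percentile of width. Tgfb1, the main fibrogenic form, had a fold enrichment of 12.1 over 3434 bp in the replicated list, 14.8 over 3428 bp in pool G's and 9.83 over 3443 bp in pool H's. Tgfb2, which acts in valve formation, had 15.2 over 3559 bp, then 18.7 over 3672 bp and 10.2 over 3472 bp. Tgfb3 had 8.71 over 3659 bp, and its pool lists gave 10.8 over 3721 bp for G and 5.90 over 3541 bp for H. The 3 widths thus lay close together, between 3434 and 3659 bp, while the enrichment of Tgfb3 was well under that of Tgfb2 in every list. Each domain touched only the first of 7 exons of the longest transcript and otherwise lay in the first intron and upstream.

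The BMP ligands ranged from one of the widest domains to none. Bmp4, which acts in heart field and outflow tract development, had a single peak of 5266 bp at chr14:46385308-46390573 in the replicated list, with a fold enrichment of 7.34. Pool G's list gave it 13.6 over 5581 bp, and in pool H's list the domain measured 4968 bp and was split into 4 peaks. The one at the promoter had 3.66 there, and the highest of the 4 had 7.93. In the replicated list the width percentile of Bmp4 was 96.9 and its enrichment percentile 13.7 among marked genes. The domain reached only 23 bp upstream of the start at 46390550, ran 5242 bp downstream over 3 of 4 exons, and covered 73.7% of the gene. The start of the longest transcript, at 46390669, and the printed bases before it lay outside the domain. Its highest point lay 3433 bp into the gene.

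Bmp6, known best for its role in iron regulation, was the most enriched ligand in the replicated list and in pool H's. It had 15.6 over 3241 bp, 16.3 over 3237 bp in pool G and 13.7 over 3228 bp in pool H. In pool G's list Tgfb2, at 18.7, and Inhbb, at 16.5, were higher. The pseudoreplicated list gave Bmp6 a width of 4569 bp. Bmp2, which acts in cardiac cushion formation, had 10.5 over 3267 bp, 14.4 over 2939 bp and 7.13 over 2515 bp in the same order. These 2 promoters and that of Bmp4 were the widest of the BMPs. Bmp7 had 7.41 over 1857 bp, close to the all-gene median width. Bmp8a had 6.80 over 1213 bp and Bmp3 3.52 over 627 bp, the lowest width of any marked ligand.

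GDF ligands were the least marked group. Of 10 only Gdf6, Gdf7, Gdf10 and Gdf11 had a peak (40%, against 63.0% of all genes), with a median fold enrichment of 5.20 and a median width of 1098.5 bp. Gdf7, Gdf10 and Gdf11 were high-CpG genes, as defined below, and the other GDFs were low-CpG. Among all genes 96.7% of high-CpG and 46.0% of low-CpG ones were marked. Gdf11, a close relative of myostatin, was the strongest, with 11.5 over 1227 bp, 13.3 over 1893 bp in pool G and 9.83 over 1076 bp in pool H. Gdf6, a BMP-like factor of joint and bone, had the weakest promoter of all 41 in the replicated list at 3.05, with 8.52 in pool G and 2.51 in pool H. Its enrichment thus differed more between pools than that of Gdf11. For width the reverse held, with a ratio of pool H to pool G of 0.64 for Gdf6 (1154 against 1799 bp) and 0.57 for Gdf11. Gdf10, also called BMP3b, had 5.87 over 970 bp, and Gdf7, a factor of the dorsal neural tube, had 4.53 over 720 bp. Of the activin subunits, Inhbb had 13.6 over 2183 bp, with 16.5 over 1982 bp in pool G and 10.6 over 2482 bp in pool H, and Inhba 8.56 over 1090 bp. Inhbb was the only one of the 40 genes marked in both pools whose width ratio of pool H to pool G lay above the 95th percentile of all genes.

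No promoter peak was found in any list for the ligands Bmp5, Bmp8b, Bmp10, Bmp15, Gdf1, Gdf2, Gdf3, Gdf5, Gdf9, Gdf15, Inhbc and Inhbe, nor for the co-receptor gene Tgfbr3l. Several are known from other tissues: Gdf9 and Bmp15 from the oocyte, Gdf2 from the liver, and Inhbc and Inhbe from hepatocytes. Bmp10 is a ligand made in atrial muscle, and its nearest peak in the replicated list lay 4256 bp from a start, with a fold enrichment of 3.50 and in both pools' lists. No start of a coding transcript, or of a gene of another type, lay within 1000 bp of that peak. Starts of non-coding transcripts of coding genes were not searched.

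For 2 of the unmarked genes a strong peak lay just outside the window. The nearest peak to Gdf9, at chr11:53429598-53431685, lay 1614 bp from its coding start, with a fold enrichment of 25.5. That peak was at the start of Uqcrq, a subunit of respiratory complex III. It also covered the annotated beginning of the Gdf9 gene, at 53431023. Gdf15, a stress-induced cytokine, had a peak at chr8:70629457-70630411, 1684 bp from its start, with a fold enrichment of 15.3 and in both pools' lists. That peak lay within the gene, over part of exon 2 of 2 and 237 bp of the intron. No start of a coding transcript, or of a gene of another type, was within 1000 bp of it. Starts of non-coding transcripts of coding genes were not searched. The enrichment there was as high as the all-gene median for promoters. All other unmarked genes had their nearest peak at least 3683 bp away, the distance for Bmp5.

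Receptor promoters were marked with a single exception, Tgfbr3l. Type I receptors, the kinases that phosphorylate Smads, had peaks at 7 of 7 genes, with a median fold enrichment of 15.8 and a median width of 2454 bp. The type II receptors, which activate them, had peaks at 4 of 4, with medians of 17.3 and 3407.5 bp. Acvrl1, the endothelial type I receptor also called ALK1, had the widest type I domain, at chr15:101128082-101132801. It measured 4720 bp with a fold enrichment of 13.6 in the replicated list and 4741 bp with 16.5 in pool G's, but 2312 bp with 11.3 in pool H's. The domain was made of 4 peaks, the widest of 2524 bp, and in pool H's list a gap of over 1000 bp followed the first of them.

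Bmpr2, the type II receptor mutated in heritable pulmonary hypertension, had the widest receptor domain, a single peak of 4996 bp at chr1:59762189-59767184. Its fold enrichment was 15.6 in the replicated list, 15.5 in pool G's and 14.0 in pool H's, with widths of 4948 bp and 5010 bp in the pools. Pools G and H differed little in these values, in contrast to Acvrl1. Pool H's list, however, split the Bmpr2 domain into 2 peaks with a gap at the start. Acvr2a, a type II receptor for activins, had 13.9 over 4064 bp, 18.6 over 4126 bp in pool G and 11.8 over 3055 bp in pool H. Acvr2b, its paralog, had 18.97 over 2493 bp, 22.2 over 2666 bp and 14.1 over 2292 bp. The paralog with the narrower domain thus had the higher enrichment in each list.

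Highest in enrichment of all 54 genes was Tgfbr3, which encodes betaglycan, a co-receptor that presents TGF-beta ligands. Its promoter had 25.7 over 2328 bp, with 30.3 over 2382 bp in pool G and 21.1 over 1939 bp in pool H, the 98.9th percentile of marked genes. Tgfbr2, the type II receptor for TGF-beta, had 23.9 over 2751 bp, 29.1 over 3139 bp in pool G and 20.8 over 2707 bp in pool H. Its type I partner Tgfbr1 had 16.4 over 2454 bp, 19.9 over 2824 bp and 13.2 over 2446 bp. Tgfbr2 lay in the 96.4th percentile of enrichment, whereas the promoters of the BMP type I receptor Bmpr1a (17.5 over 2977 bp) and the activin type I receptor Acvr1b (16.9 over 2102 bp) were nearer the median. Acvr1, the receptor mutated in fibrodysplasia ossificans progressiva, had 15.8 over 3504 bp, in a domain that also came within 1000 bp of a start of Upp2.

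The weakest receptors were Acvr1c, with 7.41 over 804 bp, and Bmpr1b. Bmpr1b, a BMP type I receptor of cartilage and ovary, had a peak of 254 bp with a fold enrichment of 3.46 in the replicated list and one of 385 bp with 3.79 in pool G's, and none in pool H's. It was the only gene of the 54 whose call differed between lists. The peak lay at 2 of its 4 starts and not at that of the longest transcript. Its promoter was CpG-rich, with an observed over expected CpG ratio of 0.66.

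All 8 Smads were marked in every list. Smad1, Smad2, Smad3, Smad5 and Smad9, the receptor-regulated Smads, had widths of 1541 to 2861 bp and a median fold enrichment of 16.3. Smad3, which carries TGF-beta signals, had the highest, with 21.0 over 2861 bp, 22.5 over 4147 bp in pool G and 20.4 over 2250 bp in pool H, at 1 of its 4 starts. Smad2, of the same branch, had 20.1 over 2296 bp, 22.6 over 2424 bp and 16.7 over 2190 bp. Both were above the BMP-branch members in the replicated list, where Smad1 had 16.3, Smad5 15.8 and Smad9 13.8. Smad4, the common partner, had 15.3 over 2933 bp, 17.5 over 3203 bp in pool G and 13.1 over 2115 bp in pool H.

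The inhibitory Smads had the widest domains of the whole group, while their enrichment lay in the 75.2nd percentile for Smad7 and the 26.0th for Smad6. Smad7, an inhibitor of both branches, had a domain of 13872 bp on chromosome 18, from 75366240 to 75380111, made of 7 peaks. It was in the 99.96th percentile of width, with a fold enrichment of 19.1, while the pools had 14317 bp with 18.8 (G) and 9016 bp with 16.2 (H). In the replicated list the 19.1 belonged to a peak of 920 bp upstream of the start. The widest peak, of 7038 bp and over the start, had 15.3. The Smad7 domain ran 12582 bp downstream of the start over 3 of 4 exons and covered 44.3% of the gene. Smad6, which mainly inhibits BMP signals, had a domain of 6631 bp at chr9:64016436-64023066, made of 2 peaks, in the replicated list, 6629 bp in pool G's and 6624 bp in pool H's. Its width was nearly equal in the lists, while its enrichment was 10.8, 18.7 and 9.04 in that order. The domain was made of 2 peaks in pool G's list but of 4 in pool H's. The domain ran 5623 bp into the gene but over its first exon only, the rest being intron. Of the peaks that lay inside the gene and over 1000 bp from any start, all 5 of Smad7 belonged to this domain, as did 1 of 4 of Smad6.

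**Figure D3:**
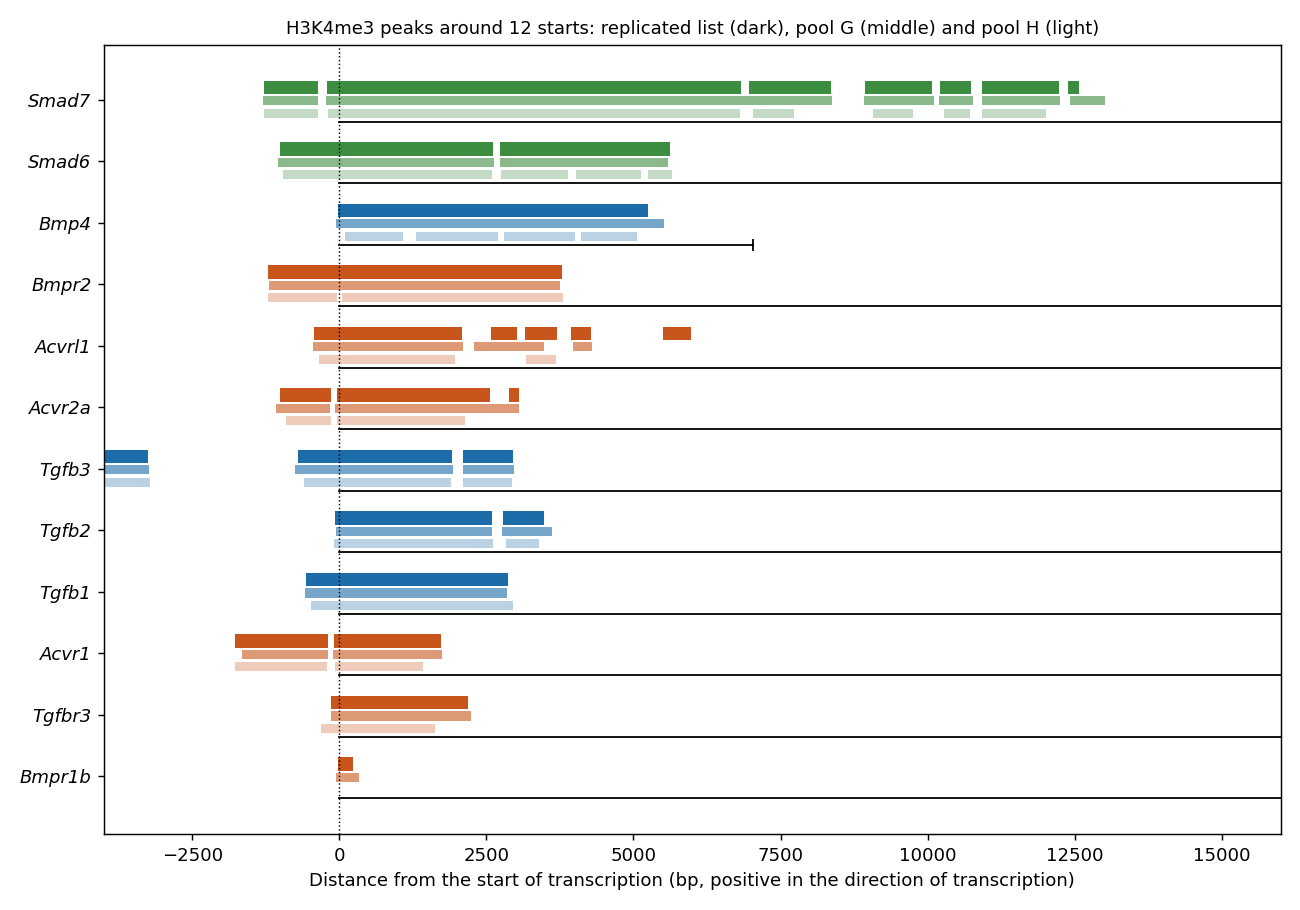
Peaks around the starts of 12 genes as horizontal bars (x axis, bp from the start, positive in the direction of transcription), with the replicated list dark, pool G in the middle shade and pool H light, and the gene's extent as a thin line. The peaks of Smad7 run to 12582 bp downstream in the replicated list, while those of Bmpr1b are absent in pool H.

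The 6 other prefix matches were all marked. Tgfbrap1, a trafficking protein first found bound to TGF-beta receptors, had 24.0 over 1877 bp, 26.3 over 1937 bp in pool G and 19.5 over 1827 bp in pool H. Bmp2k, a kinase of the endocytic pathway, had 20.3 over 2200 bp, 21.4 over 2379 bp and 18.7 over 2108 bp. Tgfb1i1, the focal adhesion protein Hic-5, had 17.8 over 2771 bp, 19.7 over 3026 bp and 16.0 over 2311 bp. These 3 were above the all-gene median of enrichment. Bmp1, a protease that cleaves procollagen and chordin, had 14.6, Bmper, a secreted BMP regulator, 14.3, and Tgfbi, a matrix protein induced by TGF-beta, 7.18 over 1025 bp.

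The pools differed in the same direction at almost every gene. Of the 40 genes marked in both pools, 40 had a higher fold enrichment and 37 a wider domain in pool G, and the median ratio of pool H to pool G was 0.68 for enrichment and 0.86 for width. Over all genes marked in both lists these ratios were 0.70 and 0.89, and 96.1% of genes were higher and 88.7% wider in pool G. The 3 genes wider in pool H were Inhbb, Tgfb1 and Bmpr2. Enrichment ratios below the 5th percentile of all genes, 0.517, were found for Bmp2, Bmp4, Gdf6, Gdf10 and Smad6. That of Bmp4, 0.27, sets pool G's unsplit peak against the promoter fragment in pool H. With the highest peak of the domain in each pool it was 0.58. That second measure was not computed for all genes, so it has no limit of its own here. The ratios of the other 4 were the same by either reading. Width ratios below the 5th percentile, 0.557, were found for Acvr1c, Acvrl1, Smad3 and Tgfbi. By the measures the limits came from, the pools lay further apart for these genes than for most. For Bmp4 this rests on a peak that was split in pool H's list but not in pool G's. The pseudoreplicated list had the same fold enrichment as the replicated one for all 41 and the same width for 36, with Bmp6, Gdf11, Bmpr1a, Smad3 and Smad7 wider. These 2 lists are not independent, since 24037 of the 24996 replicated peaks stand unchanged in the other.

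Marked and unmarked members differed in the CpG content of their promoters. A gene was called high-CpG if the sequence within 1000 bp of one of its starts held at least 0.6 of the CpG dinucleotides that its base composition predicts, with a GC share of 0.5 or more. Of 32 high-CpG members 31 were marked, where 96.7% of all high-CpG genes were, and of 22 low-CpG members 10 were, where 46.0% of all low-CpG genes were. The single high-CpG member without a peak was Bmp8b. The share in each CpG class was thus near that of all genes. All 8 Smads and 10 of 13 receptors were high-CpG, but 10 of 27 ligands. Within the high-CpG promoters 9 of 10 ligands and 10 of 10 receptors were marked, and within the low-CpG ones 6 of 17 and 2 of 3. The median CpG ratio was 0.70 for marked and 0.26 for unmarked members, against 0.64 and 0.20 over all genes. Low-CpG members with a peak were Tgfb1, Tgfb3, Bmp3, Bmp4, Gdf6, Inhba, Acvr1c, Acvrl1, Tgfb1i1 and Tgfbi. Of these, Tgfb1 (0.599), Acvr1c (0.590), Bmp3 (0.584) and Gdf6 (0.575) lay just under the ratio limit of 0.6. The others lay between 0.347 (Tgfb1i1) and 0.527 (Tgfb3).

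**Figure D4:**
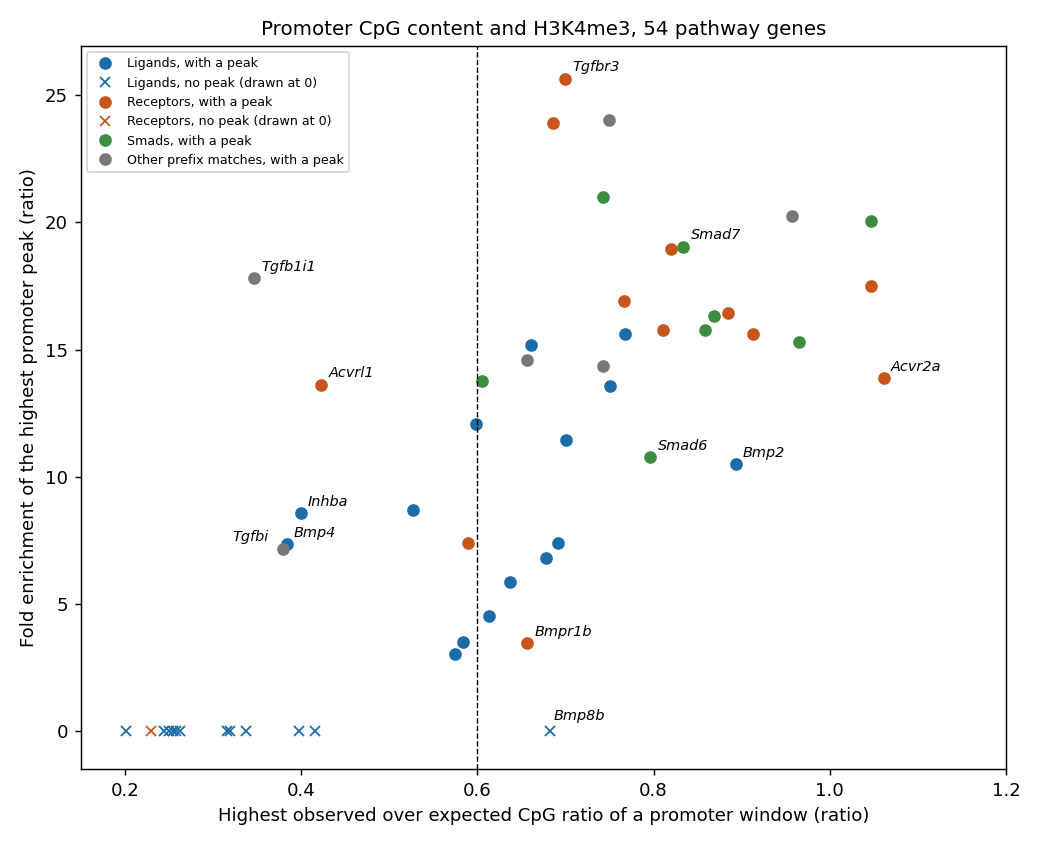
Highest observed over expected CpG ratio of any promoter window (x axis) against fold enrichment in the replicated list (y axis) for all 54 genes, with unmarked genes as crosses at 0 and a dashed line at the ratio of 0.6. All unmarked genes lie left of the line but for Bmp8b, and 10 marked genes, Acvrl1 and Bmp4 among them, are low-CpG.

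Bmp8a and Bmp8b both lie on chromosome 4 and encode closely related ligands. Both promoters had a CpG ratio of 0.68, yet Bmp8a was marked in every list and the nearest peak to Bmp8b lay 33801 bp away, at the start of Ppie. Within 1000 bp on either side of the starts the longest run of identical bases was 19 bp, and 48.8% of aligned columns were identical.

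Short motifs were counted on both strands in the 250 bases before the start of the longest transcript, as a description and not as binding sites. The GC-rich Smad element GGCGCC, which can overlap a GC box, was found in 10 of the 41 marked members (24.4%) and in 0 of the 13 unmarked ones, against 11.8% of all promoters. It stood in 4 of 8 Smads and 4 of 13 receptors but in 0 of 27 ligands. The GC box GGGCGG was present in 78.0% of marked and 23.1% of unmarked members, against 41.8% of all. The Smad box CAGAC was found in 26.8% of marked and 61.5% of unmarked members, against 40.9% of all promoters. TATAAA was found in 12.2% and 23.1%, against 11.3%. The palindrome GTCTAGAC was in none of the 54 windows and in 0.175% of all promoters. Marked members also had the higher CpG ratio, 0.70 against 0.26, and the part of base composition in these counts was not tested.

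Around the start, the domains of these genes reached mainly into the gene. In 39 of 41 (95.1%) the domain extended further downstream than upstream, against 78.3% of all marked genes. The median reach was 563 bp upstream and 1723 bp downstream, against 608 and 1079 bp over all genes. The 2 exceptions, Acvr1 and Tgfbrap1, were the only members whose domain also came within 1000 bp of a start of another coding gene. At least a single start lay within a peak in 38 of 41, the exceptions being Bmp2, Bmp3 and Bmp2k. Of the 41 domains 34 touched the first exon of the longest transcript and no other exon, 6 touched more than 1 exon, and that of Bmpr1b touched none. Of 24 marked members with more than 1 start, 12 had all starts marked, against 57.4% of such genes in all.

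Other genes of the pathway outside these prefixes were listed by role, 60 in all, and 46 had a promoter peak (76.7%, against the 63.0% of all genes), while pool G had 48 and pool H 45. Of 14 intracellular regulators of the signal 14 were marked, with a median fold enrichment of 18.1, and of 10 genes of latency and activation 10 were. The widest regulators were Ski, a repressor of Smad complexes, at 9213 bp, against 6380 bp in pool G's list and 5825 bp in that of pool H, and the homeobox repressor Tgif1, at 6162 bp. Ltbp4, a binding protein of latent TGF-beta, had 5184 bp and Lrrc32, which tethers the latent form at the cell surface, 4371 bp. Of the 6 targets all were marked, and Id3 and Id2, which encode inhibitors of helix-loop-helix factors and are known BMP targets, had 8776 and 7295 bp. In the widest 5.0% of all marked genes lay 7 of the 46, Id1 among them at 5010 bp.

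Secreted antagonists and modulators were marked in 9 of 16 cases, or 56.2%, beside 55.6% of the ligands. Fst, which encodes follistatin, an activin trap, had 3912 bp and Crim1, a BMP-binding membrane protein, 3656 bp. Among those with no peak in the replicated list were Chrdl1, Chrdl2, Grem1, Sost, Sostdc1 and Dand5, though Chrdl2 and Grem1 had one in pool G's, and Fstl3 was missing from pool H's. Further ligands and co-receptors were marked in 7 of 14 cases. Eng, the endothelial co-receptor endoglin that works with Acvrl1, had 8881 bp in the replicated list, 9417 bp in pool G's and 5605 bp in pool H's, and Rgmb, a BMP co-receptor, had 4130 bp. Lefty1, Lefty2, Mstn, Amh, Amhr2, Tdgf1 and Cfc1 had none. All 8 Smads and all 14 intracellular regulators were high-CpG genes, of which 96.7% were marked in the whole genome, so their full counts are near that background. The shares of ligands and of antagonists lay slightly under the 63.0% of all genes.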

How the data were processed

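H3K4me3 peaks of mouse heart were taken as deposited, in 4 lists on mm10 (24996, 24826, 21505 and 26412 peaks for replicated, pool G, pool H and pseudoreplicated). The peaks' signal value is a ratio deposited by the authors and was taken for a fold enrichment, which is an assumption because the column is not named. The −log10 q value deposited by the authors was used in an alternative only, and 667 replicated peaks had q over 0.05. The peak caller, its threshold and the read depth are not given in the sources used here. Values were set side by side within a list, and the ratios between pools were given with those of all genes.

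Starts came from GENCODE M21. Intervals were computed with Python 3.11.15, numpy 2.4.6, pandas 2.3.3 and pysam 0.24.0, tested on simulated data against bedtools 2.31.1, and figures drawn with matplotlib 3.10.9. The Bmp8 promoters were aligned with biopython 1.88. The sequences of starts on chromosome 18 are not printed.

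The members, classes and lists were chosen with earlier results of these data known. Named with values were, per class, the 3 widest and 3 most enriched members and those whose calls differed between lists, and, per role of the other pathway genes, the 2 widest and those without a peak, of which 1 is not reported here by name. Values of other members were added after they were seen. Each choice was varied in turn: the peak list used, the window (500 or 2000 bp), starts limited to that of the longest transcript, the gap joined (0 or 3000 bp), the peak taken as a gene's own (the nearest to the start), a minimum of 5 for −log10 q, and domains kept only where they reach no other coding promoter.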

Additional observations from a re-analysis of the deposited data

How the results depend on the processing

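Over the alternatives, 94 values of the main results stayed within the spread between pools (or, for counts of genes, within a fold limit of the main count) and 7 did not. This tally cannot measure robustness. A count such as 8 of 8 Smads could not rise, and the pools' own lists were judged against an SD made from those same lists. The median ligand width was 1935 bp in pool G's list, 2020 bp with a −log10 q of at least 5, 1232 bp with no gaps joined and 2183 bp with gaps of up to 3000 bp joined. The median receptor width was 1877.5 bp with no gaps joined, the median Smad width 2220 bp in pool H's list, and the median Smad fold enrichment 18.8 in pool G's list. Ligands had the lowest median width and fold enrichment of the 3 classes under each alternative run, while the order of receptors and Smads changed between alternatives. Of the 54 genes, 39 were marked with a −log10 q of at least 5, without Bmp3 and Bmpr1b, and 43 with a window of 2000 bp, which added Gdf9 and Gdf15. Of the members' own values 624 moved by less than the spread and 65 by more, with the same limit for the pools' own lists.

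No paired analysis was possible because no result comes from a test and all samples are of one condition. With 2 pools the SD is itself poorly known, the lists hold called peaks only, and promoters below the calling threshold are not seen. Peaks cannot be assigned to the C57BL/6J or CAST/EiJ allele or to a cell type.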
